A study of Mus musculus with 8 samples.

Results

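Ras is a small GTPase, and 9 genes stand here for Ras and the proteins that act on it directly: Nras, Hras, Ptpn11, Rasa1, Rasa3, Nf1, Sos1, Grb2 and Rasgrp2. They were taken by name and by no threshold on a measured value, though with earlier results of these data known. The Hras probe was found under its older name Hras1. The arrays held 22 probes for them, of 41174 probes in all, and these 9 genes were among 27600 gene names. Total RNA came from bone marrow hematopoietic stem cells (HSCs), the cells that renew all blood lineages, of B6 mice. There were 2 Nras+/+ arrays, whose cells carry no mutant allele, 3 NrasG12D/+ arrays with 1 mutant allele and 3 NrasG12D/G12D arrays with 2 mutant alleles. Each was an Agilent array of 60-base probes, hybridised with Cy3-labelled RNA of 1 sample. The labels name the NrasG12D allele as endogenous, that is, at its own locus. The sources used here give no age, no gate for the HSCs and no Cre driver. Nor do the labels say whether samples came from separate animals, so a p-value here reflects the spread among these samples alone, which may be technical.

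Ras cycles between a GTP-bound form that signals and a GDP-bound form that does not. Exchange factors such as Sos1 and Rasgrp2 load GTP, with Grb2 carrying Sos1 to activated receptors and the phosphatase Shp2, encoded by Ptpn11, promoting that step. The GTPase-activating proteins neurofibromin (Nf1), Rasa1 and Rasa3 speed the hydrolysis of GTP. The G12D substitution makes Nras resistant to these proteins and leaves it mostly GTP-bound. In blood cells, mutations of NRAS, PTPN11 and NF1 are known from myeloid disease such as juvenile myelomonocytic leukemia.

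Of the 22 probes, 14 were well above background on no array, and their highest processed signal (background-subtracted intensity, linear scale) was 13. The other 8 probes belonged to 6 genes. Of these, 7 probes of 5 genes, Nras, Ptpn11, Rasa3, Grb2 and Rasgrp2, reached that level on at least 2 arrays and could be tested. Hras, Rasa1, Nf1 and Sos1 were not tested. Ptpn11 and Grb2 were above background on all 8 arrays, and Rasgrp2 passed through arrays of every genotype. Nras passed only through Nras+/+ and NrasG12D/+ arrays, and Rasa3 mainly through them. For Nras and Rasa3, passing and reading low in NrasG12D/G12D are therefore linked. The counts below describe the 5 tested genes and not all 9.

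In detection, the group means of member probes went down with the number of mutant alleles, while slide changed along with genotype. The member probes well above background numbered 7 and 6 on the Nras+/+ arrays, 5, 6 and 4 on the NrasG12D/+ arrays, and 3 on each of the 3 NrasG12D/G12D arrays. As group means this was 29.5%, 22.7% and 13.6% of the 22 probes, with no overlap between the NrasG12D/G12D arrays and the others. All NrasG12D/G12D arrays and the NrasG12D/+ array with 4 such probes were on slide 2, and the rest on slide 1. The part of slide in these counts was not tested. Over all probes the means were 33.1%, 37% and 28.5%, so the order of the first and second groups was the other way round. By array, over all spots, NrasG12D/G12D gave 30.3%, 26.0% and 29.9%. These overlapped the NrasG12D/+ array on slide 2, which gave 28.5%. Of the 10862 probes of any gene that were above background on both Nras+/+ arrays, 764 (7.03%) were so on no NrasG12D/G12D array. Of 5 such member probes, 1 was, the probe of Nras.

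**Figure D1:**
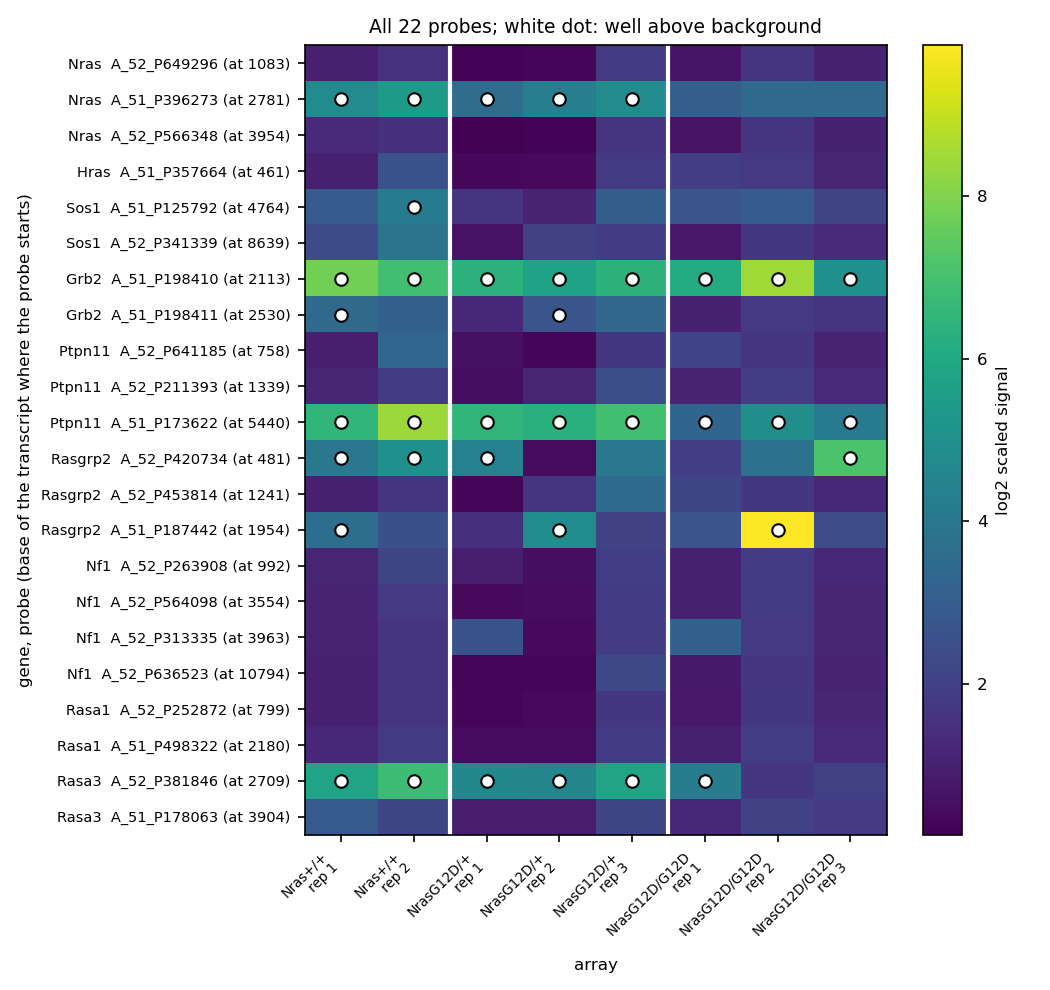
Log2 scaled signal of the 22 probes (rows, with the base of the transcript where each probe starts) on the 8 arrays (columns, grouped by genotype); colour gives the signal and a white dot marks a probe well above background. Only the Ptpn11 probe at base 5440 and the Grb2 probe at base 2113 carry a dot on all 8 arrays, and 14 rows carry none.

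Arrays differed in brightness and in slide. Median processed signals ranged from 3.09 to 6.75, and 26% to 42.4% of spots were well above background. The 2 Nras+/+ arrays shared slide 1 with 2 NrasG12D/+ arrays (replicates 1 and 2). All NrasG12D/G12D arrays were on slide 2, together with the remaining NrasG12D/+ array. For NrasG12D/G12D against Nras+/+, slide and genotype cannot be told apart except through the NrasG12D/+ arrays. Of 14 HSC markers, 8 to 9 per array were above background in Nras+/+, 7 to 11 in NrasG12D/+ and 6 to 9 in NrasG12D/G12D. Over the 9 of them that were tested, the log2 of the summed scaled signals was 9.82 to 9.83, 8.14 to 9.77 and 7.80 to 13.15. Ly6a, Slamf1 and Fgd5 were among those above background on all 8 arrays, while Kit was so on 1 and Procr and Gata2 on none, so the labelled cell type is borne out by part of its markers. The 14 include Cd48 and Flt3, better known from progenitors than from HSCs, and each was above background on 7 arrays. Markers of other cells were present too. Per array, 1 to 4 of 5 erythroid, 2 to 3 of 4 monocyte and macrophage, 2 to 4 of 6 B cell, 2 to 5 of 7 T and NK cell and 2 to 3 of 5 megakaryocyte markers were above background. Of 7 neutrophil markers, 3 were above background on each Nras+/+ array, 3 to 4 on the NrasG12D/+ and 1 to 2 on the NrasG12D/G12D arrays. Over the 5 of these that were tested, the log2 of the summed scaled signals was 7.65 to 7.77, 7.16 to 15.48 and 6.66 to 11.03. Of 5 stromal and endothelial markers, 3 were above background on each Nras+/+ array, 2 to 3 on the NrasG12D/+ and 0 to 3 on the NrasG12D/G12D arrays. The log2 of the summed scaled signals of the 3 tested ones was 7.62 to 9.56, 4.82 to 6.94 and 4.18 to 11.15. The part of these markers in the results below was not tested. In bulk RNA of this kind, fewer cells of a type and less RNA per cell cannot be told apart.

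Changes are differences of mean log2 scaled signal, where each array was scaled to the 75th percentile of the probes above background on all 8 arrays. No member passed the test in any comparison (limma, Benjamini-Hochberg over 14966 genes, threshold 0.05), and percent called was 0% of all genes in each of the 3 comparisons. The lowest adjusted p of any gene was 0.0649 when NrasG12D/+ was set against Nras+/+, 0.0573 when NrasG12D/G12D was, and 0.495 between the mutants. What follows are therefore values, with unadjusted p-values from that fit as a scale of their size. The 3 comparisons share arrays, so they are not independent of each other.

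Nras, the Ras gene that carries the mutation, was seen by 3 probes on the plus strand of chromosome 3, all in the 3′ untranslated part of the last exon. The files give coordinates and name no genome build. None of the 3 covers codon 12, so the signal is the sum of both alleles and does not check the genotype. The first 30 bases of each are shown because only the middle one gave signal:

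A_52_P649296 (chr3:103193589-103193648, from base 1083 of the mRNA): cattctgttgacaacagtttcttatactct

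A_51_P396273 (chr3:103195287-103195346, from base 2781): actaatcagaagggggaacaaacatttgct

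A_52_P566348 (chr3:103196460-103196519, from base 3954): ggtggaattagctcagctctatatgagaag

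On A_51_P396273 the processed signal was 27.7 and 25.3 in Nras+/+, 22.5, 27.4 and 18.7 in NrasG12D/+, and 12, 8.25 and 10.4 in NrasG12D/G12D. The NrasG12D/G12D arrays were the lowest 3 of the 8, and on none of them was the probe well above background. The other Nras probes stayed between 1.65 and 2.42 on every array, so the level rests on 1 probe. After scaling, the log2 means were 5.12 ± 0.43 (SD, n = 2), 4.25 ± 0.60 (SD, n = 3) and 3.33 ± 0.22 (SD, n = 3). Nras+/+ (4.82 and 5.42) and NrasG12D/+ (3.62, 4.29 and 4.83) met at their edges, while NrasG12D/G12D (3.07, 3.45 and 3.47) read below both. NrasG12D/G12D was lower than Nras+/+ by a log2 change of -1.79 (SE 0.70, unadjusted p = 0.0315, adjusted p = 0.722 by limma). As the probe was not well above background in 1 group, the fold is given as a bound for the dim arrays under this scaling, at least 3.11-fold lower. It is no bound over other processing, where the change was smaller in some settings and larger in others. The bound takes each dim array at the lowest level measured well above background there, or at the probe's own level where that is greater. Taken so, NrasG12D/G12D still lay below Nras+/+ but overlapped NrasG12D/+. Against NrasG12D/+ it was at least 1.71-fold lower in the same sense (log2 change -0.92, SE 0.63, adjusted p = 0.833 by limma). NrasG12D/+ against Nras+/+ gave -0.87 (SE 0.70, adjusted p = 0.818 by limma). The median of all 14966 genes was itself -0.44, -0.20 and -0.25 in these comparisons. A change as low as that of Nras or lower was seen in 9.62%, 25.2% and 27.2% of genes. With another background correction (normexp), the changes against Nras+/+ and NrasG12D/+ were -0.55 and -0.02. With slide as a block they were -2.66 and -1.50.

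Hras, a second Ras protein of the same family, had 1 probe (A_51_P357664, chr7:141042717-141042776, minus strand, in the coding sequence). Its signal lay between 1.84 and 5.58 and was well above background on no array. Whether Hras changed was not detectable at this signal. The probe is shown in full because all that is known of Hras here rests on it:

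A_51_P357664: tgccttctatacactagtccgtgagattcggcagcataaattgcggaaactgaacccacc

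Among the activators, Sos1, the exchange factor that works with Grb2, was above background at 1 of its 2 probes and on 1 array only. That probe, A_51_P125792, read 10.3 on Nras+/+ replicate 2. Sos1 was therefore not tested.

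Grb2, the adaptor that binds phosphorylated receptors and Sos1, was bright. Probe A_51_P198410 (chr11:115460293-115460352, minus strand, 3′ untranslated) was well above background on all 8 arrays. Its processed signal was 217 and 72.1 in Nras+/+, 153, 74.7 and 56.2 in NrasG12D/+, and 98.2, 268 and 30.7 in NrasG12D/G12D. The NrasG12D/G12D arrays held both the highest and the lowest of the 8 values. The log2 means after scaling were 7.36 ± 0.61 (SD, n = 2), 6.18 ± 0.38 (SD, n = 3) and 6.53 ± 1.76 (SD, n = 3). The change was -1.18 (SE 1.02) for NrasG12D/+ and -0.82 (SE 1.02) for NrasG12D/G12D against Nras+/+, with adjusted p of 0.82 and 0.825 by limma. The second value ran from -1.79 without NrasG12D/G12D replicate 2 to -0.07 without replicate 3. On the scaled values NrasG12D/+ lay below Nras+/+ without overlap, as did 15.9% of all genes, but the unscaled signals overlapped. Between the mutant genotypes the change was 0.35 (SE 0.91), and -0.62 without NrasG12D/G12D replicate 2.

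A second Grb2 probe, A_51_P198411, begins with the 20 bases that end the first. The files nevertheless place the probes apart on chromosome 11 with no shared base, and give the second only 45 bases there (chr11:115460220-115460264). The last 30 bases of the first and the first 30 of the second are shown, with the shared 20 in capitals, because probes with a shared stretch read so differently:

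A_51_P198410 (end): gattgtttttATTTTGGAATTGGAGATATC

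A_51_P198411 (start): ATTTTGGAATTGGAGATATCatgaagcctt

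The second probe gave 11.3 and 5.25 in Nras+/+, 4.28, 9.13 and 6.75 in NrasG12D/+, and 2.97, 2.54 and 2.95 in NrasG12D/G12D, and was above background on 2 arrays. These were 1 Nras+/+ and 1 NrasG12D/+ array and no NrasG12D/G12D array, so no difference between genotypes could be read from this probe.

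Ptpn11 encodes the phosphatase Shp2, which acts upstream of Ras. It was seen by 3 probes on the minus strand of chromosome 5. Only A_51_P173622, in the 3′ untranslated region, gave signal, and it was well above background on all 8 arrays. The other 2 lie in the coding sequence, 1 of them across an exon junction (4478 bases of genome for 60 bases of probe), and were above background on none, with signals up to 6.08. The first 30 bases of the untranslated probe and the whole of the coding probes are shown because the level of Ptpn11 depends on which is read:

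A_51_P173622 (chr5:121391193-121391252, from base 5440 of the mRNA): catgagtgtatctgcatatactctgggtat

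A_52_P641185 (chr5:121423378-121423437, from base 758): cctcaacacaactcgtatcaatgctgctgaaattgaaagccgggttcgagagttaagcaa

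A_52_P211393 (chr5:121405287-121409764, from base 1339 of a cDNA clone): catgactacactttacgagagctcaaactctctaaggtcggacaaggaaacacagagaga

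On A_51_P173622 the processed signal was 90.7 and 201 in Nras+/+, 164, 109 and 80.6 in NrasG12D/+, and 13.7, 23.1 and 17 in NrasG12D/G12D. The 3 NrasG12D/G12D arrays lay far below the other 5, and the Nras+/+ and NrasG12D/+ arrays overlapped. The scaled log2 means were 7.47 ± 1.33 (SD, n = 2), 6.57 ± 0.33 (SD, n = 3) and 4.12 ± 0.84 (SD, n = 3). The NrasG12D/G12D values lay only 0.29, 1.03 and 0.85 above the lowest level measured well above background on the same array. The folds below thus rest on values near the limit of detection. NrasG12D/G12D was 10.2-fold lower than Nras+/+ (log2 change -3.35, SE 0.85, unadjusted p = 0.00347, adjusted p = 0.715 by limma). It was 5.46-fold lower than NrasG12D/+ (log2 change -2.45, SE 0.76, unadjusted p = 0.0105, adjusted p = 0.803 by limma). Of all genes, 1.47% and 4.19% had a change as low or lower. NrasG12D/+ against Nras+/+ gave -0.90 (SE 0.85, adjusted p = 0.823 by limma), and 0.04 without Nras+/+ replicate 2. Within slide 2, where 1 NrasG12D/+ array stands beside the 3 NrasG12D/G12D arrays, the change was -2.81. Against Nras+/+ it was -3.89 with slide as a block, with a larger SE of 1.43. It was -1.62 with normexp, under the limit given for Nras, and -2.41 without Nras+/+ replicate 2.

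Rasgrp2, an exchange factor best known for acting on the Ras relative Rap1 in platelets, had 3 probes that disagreed with each other. The probe A_52_P420734 (chr19:6403576-6403635, plus strand) read 16.1 and 19.1 in Nras+/+, 39, 1.87 and 10.4 in NrasG12D/+, and 5.55, 10.3 and 131 in NrasG12D/G12D. The probe A_51_P187442, to which the files give no coordinates, read 12.5 and 3.4, then 5.01, 40.2 and 2.79, then 9.34, 699 and 5.14. On each probe 1 NrasG12D/G12D array stood far above the others, replicate 3 on the first and replicate 2 on the second. The third probe, A_52_P453814, was above background on no array. The 2 probes with signal begin as follows, and the third is shown whole:

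A_52_P420734: ggagcgcaaggggcactacgcatgctacac

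A_51_P187442: agactgtggaagatggtgtgttcgacatcc

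A_52_P453814: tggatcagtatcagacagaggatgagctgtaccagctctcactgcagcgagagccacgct

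On A_52_P420734, the probe used in the gene test, the scaled log2 means were 4.52 ± 0.69 (SD, n = 2), 2.94 ± 2.19 (SD, n = 3) and 4.28 ± 2.62 (SD, n = 3). The groups overlapped in all 3 comparisons. The change was -1.58 (SE 1.63) in NrasG12D/+ and -0.24 (SE 1.63) in NrasG12D/G12D, each against Nras+/+, and 1.34 (SE 1.45) between the mutants. Without NrasG12D/G12D replicate 3 the last of these was -0.08, and without NrasG12D/+ replicate 2, which was not above background, the first was -0.32. On A_51_P187442 the same changes were -0.30 (SE 2.10), 1.91 (SE 2.10) and 2.21 (SE 1.87). No direction of Rasgrp2 could be read from these values.

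Of the GTPase-activating proteins, neurofibromin (Nf1, 4 probes) and Rasa1 (2 probes) gave no signal well above background on any array. The brightest of them, Nf1 probe A_52_P313335, reached 13 and is shown with the coding Rasa1 probe, as the probes of this kind that gave no result:

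A_52_P313335 (Nf1, chr11:79270139-79270332, plus strand): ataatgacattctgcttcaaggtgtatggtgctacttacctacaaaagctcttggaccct

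A_51_P498322 (Rasa1, chr13:85690105-85691334, minus strand): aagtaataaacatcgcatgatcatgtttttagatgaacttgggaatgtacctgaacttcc

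Rasa3, a GTPase-activating protein for Ras and Rap1, was the other member, beside Ptpn11, with a wide gap between NrasG12D/G12D and Nras+/+, though it was detected on only 1 NrasG12D/G12D array. Its probe A_52_P381846 starts at base 2709 of the mRNA, on the minus strand of chromosome 8. The first 30 bases are shown because the level of Rasa3 rests on this probe:

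A_52_P381846 (chr8:13568544-13568603): ggcagaaggcatacatggagaggaaacatg

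The processed signal was 55.2 and 66.6 in Nras+/+, 45.4, 32.8 and 37 in NrasG12D/+, and 27.5, 2.44 and 3.7 in NrasG12D/G12D. NrasG12D/G12D replicate 1 was well above background, and replicates 2 and 3 were not. On this unscaled, linear signal the 3 genotypes did not overlap, but on the scaled values Nras+/+ and NrasG12D/+ did. After scaling, the log2 values were 5.81 and 6.81 in Nras+/+, 4.63, 4.55 and 5.81 in NrasG12D/+, and 4.26, 1.69 and 1.97 in NrasG12D/G12D. The means were 6.31 ± 0.71 (SD, n = 2), 5.0 ± 0.70 (SD, n = 3) and 2.64 ± 1.41 (SD, n = 3). The measured log2 change of NrasG12D/G12D was -3.67 against Nras+/+ (SE 0.96, unadjusted p = 0.00411, adjusted p = 0.722 by limma). Against NrasG12D/+ it was -2.36 (SE 0.85, unadjusted p = 0.0225, adjusted p = 0.803 by limma). Because 2 of the 3 NrasG12D/G12D arrays were dim, the folds are bounds for those arrays under this scaling only, set as for Nras. NrasG12D/G12D was at least 5.59-fold lower than Nras+/+ (log2 -2.48) and at least 2.25-fold lower than NrasG12D/+ (log2 -1.17). At these bounds NrasG12D/G12D still overlapped neither of the other groups. Of all genes, 1.12% and 4.68% had a measured change as low or lower. NrasG12D/+ against Nras+/+ gave -1.31 (SE 0.96, adjusted p = 0.816 by limma). With normexp, under its limit given for Nras, the changes of NrasG12D/G12D were -1.14 and -0.30. Within slide 2 the latter change was -3.17. A second probe, A_51_P178063, from base 3904, was above background on no array.

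**Figure D2:**
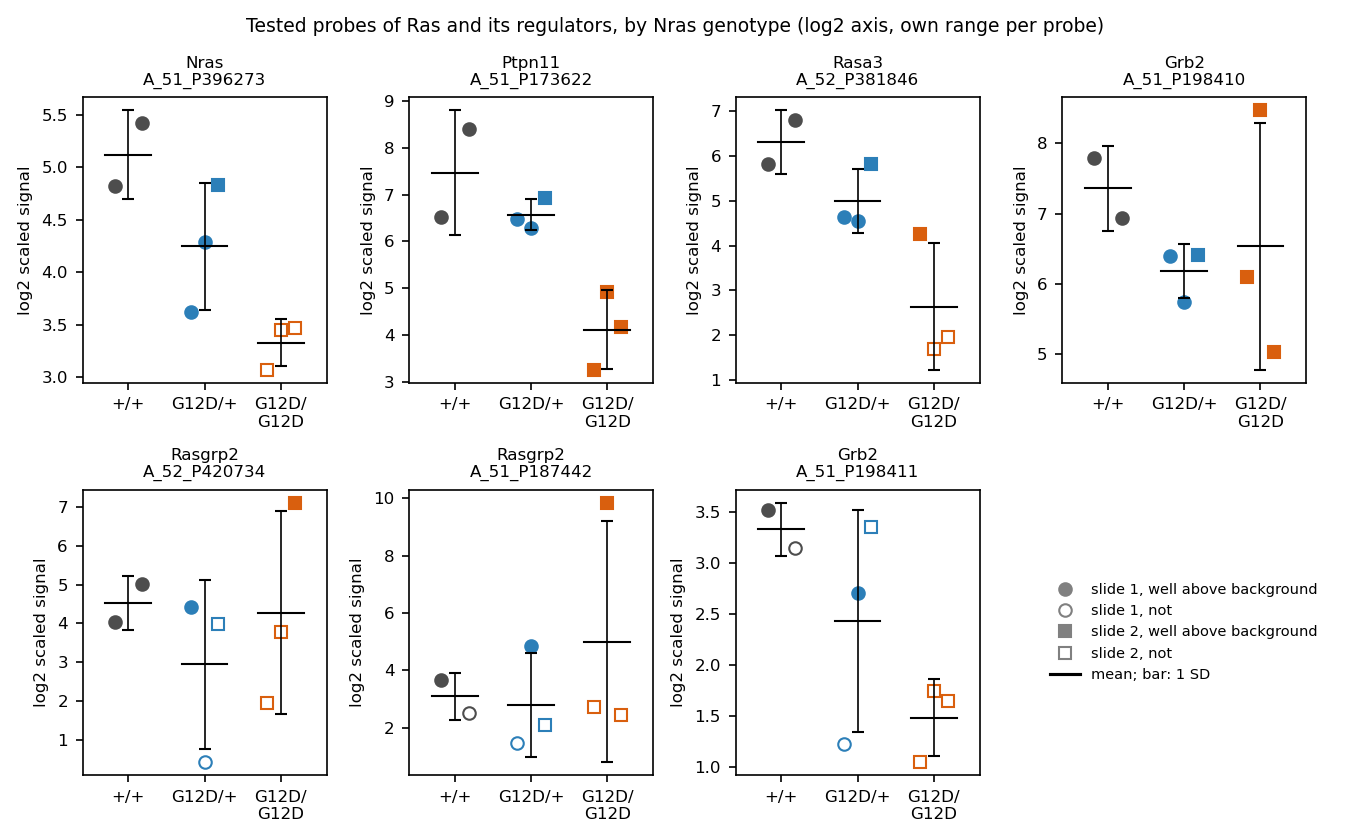
Log2 scaled signal on each array for the 7 tested probes, by Nras genotype; circles are slide 1 and squares slide 2, filled where the probe was well above background, with the mean (line) and 1 SD (bar), and each panel has its own axis range. The NrasG12D/G12D squares of Nras, Ptpn11 and Rasa3 lie below all other points, but those of Nras (3 arrays) and 2 of Rasa3 are open, while in Rasgrp2 1 array per probe stands above the rest.

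Counted over the 5 tested genes, NrasG12D/G12D against Nras+/+ gave lower means in 5 of 5, against 64.4% of all genes. Nras, Ptpn11 and Rasa3 had groups that did not overlap, with NrasG12D/G12D lower, as in 22.2% of all genes, and the same 3 had an unadjusted p under 0.05, as did 5.22% of all genes in that direction and 6.53% in either. Of these 3, Nras and Rasa3 entered the test wholly or mainly through the other genotypes, so their entry and their low level are linked. Between the mutant genotypes 3 of 5 means were lower, against 57.9% of all genes. The measured values of the same 3 genes did not overlap (8.59% of all genes), though Nras did once its dim arrays were raised to the lowest level detected. Ptpn11 and Rasa3 had an unadjusted p under 0.05 (4.34% of all genes in that direction, 5.95% in either). For NrasG12D/+ against Nras+/+, 5 of 5 means were lower, against 58% of all genes, none had an unadjusted p under 0.05 (4.76% of all genes, 2.42% on the lower side) and only Grb2 did not overlap (15.9%). The median change of the 5 was -1.79, -0.92 and -1.18 in that order of comparisons, beside -0.44, -0.20 and -0.25 over all genes. With 5 genes chosen by name these shares describe the list and show nothing particular to it.

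**Figure D3:**
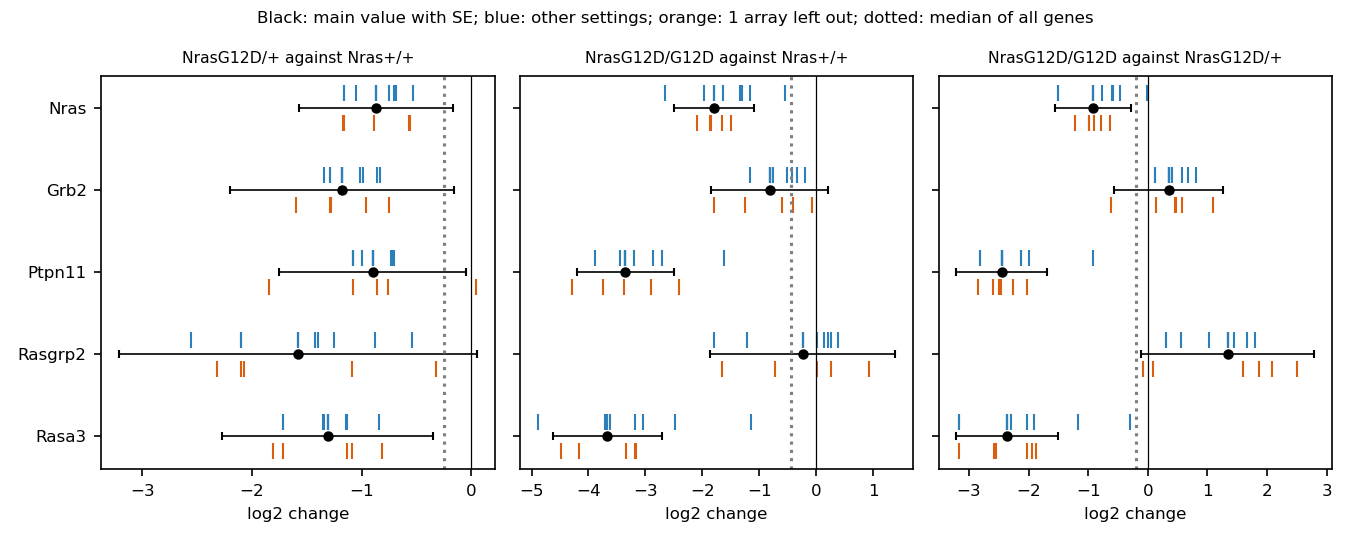
Log2 change of the 5 tested genes in the 3 comparisons (panels, each with its own axis); black points with bars are the reported change and its SE, blue ticks other processing settings, orange ticks fits with 1 array left out, and the dotted line the median of all genes. For NrasG12D/G12D against Nras+/+, all ticks of Nras, Ptpn11 and Rasa3 lie below 0, with the normexp tick nearest to it, while those of Rasgrp2 fall on both sides. The offset used with normexp shrinks changes of dim probes.

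Other genes of the Ras pathway gave a setting for these values. A list of 41 had 40 genes on the arrays: other Ras proteins, exchange factors, GTPase-activating proteins, adaptors, and the enzymes and carriers that process Ras. Of these, 24 were tested, and 10 of the tested genes were above background on each of the 8 arrays. Shoc2, a scaffold of Ras signalling, was so too, but had too few unflagged values to be tested. Sos2, an exchange factor close to Sos1, was among the 10 that were above background on none. None of the 24 passed the test in any comparison. Against Nras+/+, NrasG12D/+ was higher in 9 and lower in 15, and NrasG12D/G12D was higher in 11 and lower in 13. Between the mutant genotypes 13 were higher and 11 lower in NrasG12D/G12D. The medians were -0.32, -0.30 and 0.10, beside -0.25, -0.44 and -0.20 over all genes. With slide as a block, the second was 0.19, which is 0.94 above that of all genes in that fit.

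Named by the size of their change, the adaptor Crkl, which links receptors to exchange factors, had the lowest change against Nras+/+. Its signal was 24.1 and 139 in Nras+/+, 23, 23.8 and 13.3 in NrasG12D/+, and 12.4, 8.5 and 11.7 in NrasG12D/G12D, so that Nras+/+ replicate 2 stood apart. The change was -2.22 (SE 0.97) in NrasG12D/+ and -2.83 (SE 0.97, unadjusted p = 0.0171, adjusted p = 0.722 by limma) in NrasG12D/G12D, where 1 of 3 arrays was above background and the bounded value was -2.69. Rras2, a Ras-related GTPase, read 18.8 and 1.87 in Nras+/+, 12.6, 8.7 and 2.35 in NrasG12D/+, and 14.7, 60.2 and 42.4 in NrasG12D/G12D. It was well above background on all 3 NrasG12D/G12D arrays, on 1 of 3 NrasG12D/+ arrays and on 1 of 2 Nras+/+ arrays. The measured change was 2.64 (SE 0.98, unadjusted p = 0.0253, adjusted p = 0.803 by limma) against NrasG12D/+ and 2.10 (SE 1.1) against Nras+/+. With dim arrays at the lowest level detected the first was 1.94, the second 1.05, and the groups overlapped in both. Lgals3, galectin-3, a carbohydrate-binding protein also known to bind Ras, gave 2.37 (SE 1.48) in NrasG12D/G12D against Nras+/+ and 1.73 (SE 1.32) against NrasG12D/+. Its signal was 17.5 and 8.91 in Nras+/+, 27.3, 108 and 9.33 in NrasG12D/+, and 14.1, 129 and 338 in NrasG12D/G12D. On NrasG12D/G12D replicate 1 it was not above background, and the groups overlapped in both comparisons. Lztr1, an adaptor for the degradation of Ras proteins, gave 1.83 (SE 1.24) in NrasG12D/+ and -2.36 (SE 1.11) between the mutant genotypes, where NrasG12D/+ replicate 2 alone read 855. Dab2ip, a GTPase-activating protein, gave -1.93 (SE 1.39) in NrasG12D/+, and -1.39 with dim arrays at the lowest level detected. It was above background on 1 of 2 Nras+/+ arrays (29.4, the other 6.61) and on 1 of 3 NrasG12D/+ arrays. The Crkl, Lztr1 and Dab2ip values each lean on 1 bright array.

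**Figure D4:**
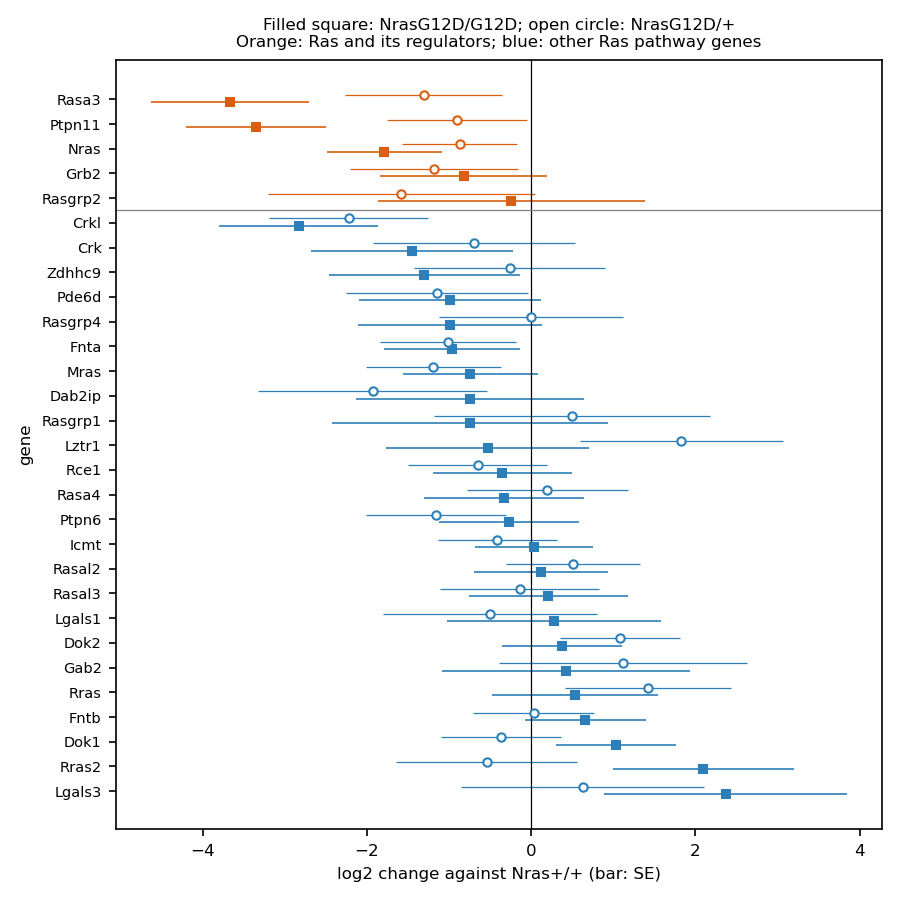
Log2 change against Nras+/+ (bar: SE) of the 5 tested genes (orange, above the line) and the 24 other Ras pathway genes (blue), with filled squares for NrasG12D/G12D and open circles for NrasG12D/+. All values are as measured: the square of Rasa3 (-3.67) includes 2 dim arrays and is -2.48 with these at the lowest level detected, that of Ptpn11 (-3.35) includes none, and the blue squares run from -2.83 (Crkl) to 2.37 (Lgals3). The NrasG12D/G12D values of Ptpn11 nevertheless lie near the lowest level detected.

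The genes whose pattern over the 8 arrays was most like that of a member were found by Pearson's r on scaled log2 signals, among 7376 to 7377 genes above background on at least 6 arrays. For Nras these were Aurkc, an Aurora kinase (r = 0.980), and 2610206C17Rik (r = 0.976). For Ptpn11 they were Htr2b, a serotonin receptor (r = 0.974), and Armt1 (r = 0.969). For Rasa3 they were Mapkbp1 (r = 0.989) and Kcnh8, a potassium channel (r = 0.985). The scaled log2 means of Kcnh8 were 8.08, 6.67 and 4.29 in the 3 genotypes, and those of Armt1 8.63, 6.43 and 3.52. These values describe 8 arrays that share slides and scaling, and were the highest among all candidates, so they carry no p.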

How the data were processed

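Spots were read by the authors with Feature Extraction 10.5.1.1, per the file headers. Its processed signal, the intensity used here, is linear; background was subtracted and a spatial trend removed array by array, per the file headers, with no scaling between arrays. The mean spot signal and local background, also deposited intensities, served only the normexp alternative (offset 50). Deposited flags of 0 or 1 mark spots well above background and outlier spots, which were set to missing. The deposited value table is a ratio: each column equalled the processed signal over its array's median (largest relative deviation 1.7e-06), so its median is 1, it is linear, and it has no centring per gene.

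Spots of 1 probe were averaged as log2 values. Each array was then scaled to its 75th percentile among the 6576 probes detected (well above background) on all 8 arrays. Testing needed detection on at least 2 arrays and at least 2 values in each genotype; the brightest probe stood for its gene, which gave 14966 genes. They were tested with limma 3.58.1 in R 4.3.3 (lmFit, then eBayes; two-sided; 1 shared spread; no covariate). The script was tested on simulated data. Precision is limited by the number of arrays: the median SE of a log2 change was 0.96 for either mutant genotype against Nras+/+ and 0.86 between them.

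Named genes were the 9 members, the 3 tested pathway genes of largest change per comparison, and the 2 genes most like Nras, Ptpn11 and Rasa3. The members and lists were chosen with earlier results of these data known. Genes were named through RefSeq tables or the files; some listed genes are counted but not reported by name here. Alternatives covered background correction, scaling, filters, probes, slide, replicate number, groups in the fit and each array left out; 1 more, on dim arrays, was added after seeing the data.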

Additional observations from a re-analysis of the deposited data

How the results depend on the processing

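No member passed the threshold under any alternative tried. For NrasG12D/G12D against Nras+/+, the normexp correction gave -0.55 for Nras, -1.62 for Ptpn11 and -1.14 for Rasa3, and against NrasG12D/+ -0.02, -0.92 and -0.30. Its offset of 50 shrinks changes of dim probes, so these values cannot show the effect of background correction alone. An alternative added after seeing the data put arrays not well above background at the lowest level detected there, or at their own if higher. It gave -1.64 for Nras and -2.48 for Rasa3 against Nras+/+, and -0.77 and -1.17 against NrasG12D/+. Over all alternatives, the log2 change against Nras+/+ ran from -2.66 to -0.55 for Nras, from -4.29 to -1.62 for Ptpn11 and from -4.89 to -1.14 for Rasa3. Signs turned as follows, and the cause was not tested. Rasgrp2 in NrasG12D/G12D against Nras+/+ was 0.02 with normexp, 0.25 with scaling over all probes, 0.20 with quantile normalization and 0.39 with the value table, 0.14 with dim arrays at that level, and -1.66 to 0.92 with 1 array left out. Between the mutant genotypes, leaving out 1 array gave -0.08 to 2.50 for Rasgrp2 and -0.62 to 1.1 for Grb2, and for NrasG12D/+ against Nras+/+ it gave -1.84 to 0.04 for Ptpn11. Rasgrp2 kept its sign for NrasG12D/+ against Nras+/+ under every alternative, with -2.55 under the replicate block. The median of the other Ras pathway genes in NrasG12D/G12D against Nras+/+ turned to 0.19 with scaling over all probes, 0.33 with the value table, 0.19 with slide as a block and 0.12 without Nras+/+ replicate 2. Between the mutants it turned to -0.25 with every probe by itself, -0.07 without NrasG12D/+ replicate 1 and -0.11 without NrasG12D/G12D replicate 3. Scaling over all probes moved the median of all genes by 0.17, 0.49 and 0.32 for NrasG12D/+ and NrasG12D/G12D, each against Nras+/+, and between the mutants.

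Genes called were counted over all genes tested, against 0 as reported. For NrasG12D/+ against Nras+/+ there was 1 with scaling over all probes, quantile normalization, the value table or no filter, and 0 to 10 with 1 array left out, the 10 without Nras+/+ replicate 2. For NrasG12D/G12D against Nras+/+ there was 1 with quantile normalization, no filter, slide as a block or only the groups compared, and 0 to 9 with 1 array left out, the 9 again without Nras+/+ replicate 2. Between the mutant genotypes there were 4 with slide as a block and 0 to 2 with 1 array left out. Where 1 array was left, it was assumed to vary like the other groups.

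Same-numbered replicates had correlations of deviations from -0.09 to 0.078. With so few arrays per genotype, deviations from a group mean constrain each other, so this check cannot tell whether the numbers pair the samples. With the replicate number as a block, 0, 0 and 0 genes were called, and the change against Nras+/+ was -1.97 for Nras, -3.45 for Ptpn11 and -3.71 for Rasa3 in NrasG12D/G12D.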
